A study of Homo sapiens with 9 samples.

Results

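The genes described here are the 37 genes of the human mitochondrial genome, chosen as the genes whose symbol begins with MT- among the 60683 genes of the count table. They comprise 13 mRNA genes, 2 rRNA genes and 22 tRNA genes. Of these, 28 are transcribed from the heavy strand and 9 from the light strand. All 13 mRNAs, both rRNAs and 17 of the 22 tRNAs reached a summed count of 10 or more, so that 32 of the 37 were among the 22672 genes tested. RNA-seq was performed on Hep3B cells, an established human liver cancer line, in 3 groups with 3 biological replicates each. The labels give mixed DMEM and F12 with serum as the medium of every culture, whereas the methods of the paper name high-glucose DMEM with serum. Every culture was exposed to its condition for 24 hours. Vehicle (DMSO) at 20% O2 was the normoxic group, vehicle at 1% O2 was the hypoxic group, and 32-134D at 1% O2 was hypoxic and given a compound that inhibits the hypoxia-inducible factors. No group received 32-134D at 20% O2, the labels state no dose of the compound, and a culture of 1 cancer line stands for each replicate.

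The mitochondrial genome is a small circle from which both strands are transcribed as long precursors. In those precursors tRNAs lie between most of the mRNAs and rRNAs, and cutting the tRNAs out at both ends releases the other RNAs. The mRNAs encode core subunits of respiratory complexes I, III and IV and of ATP synthase, the rRNAs form the mitochondrial ribosome with imported proteins, and the enzymes that copy, cut, modify and degrade these RNAs are encoded in the nucleus. In hypoxia, cells are known to turn from respiration toward glycolysis.

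The gene ends show how tightly this genome is packed, and the ends of 4 genes are given because their changes in hypoxia differed in size: MT-CO3 and MT-ND6 fell, and MT-ND4 and MT-ND5 were not called. Positions and sequences come from GENCODE version 29 on GRCh38, in which all 37 genes were found. MT-CO3, the mRNA of a subunit of complex IV, ends within a codon, as do MT-ND1, MT-ND2, MT-ND3, MT-ND4 and MT-CYB, and its stop codon is completed only when a tail is added. MT-ND4, of complex I, ends in the same way. MT-ND5 lies on the + strand and MT-ND6 on the - strand of the reference, and their last bases abut at positions 14148 and 14149. The final 30 bases of these 4 coding genes are printed with capitals for the bases past the last complete codon or, where there are none, for the last codon.
MT-CO3, chrM:9961-9990, + strand: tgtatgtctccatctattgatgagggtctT
MT-ND4, chrM:12108-12137, + strand: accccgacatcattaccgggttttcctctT
MT-ND5, chrM:14119-14148, + strand: ctcatcctaaccctactcctaatcacaTAA
MT-ND6, chrM:14149-14178, - strand: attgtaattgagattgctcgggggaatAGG

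The tRNA genes with the most counts on each strand are MT-TL1 and MT-TQ. MT-TV and MT-TL1 are shown because they flank MT-RNR2 and their counts moved against those of the rRNAs, and MT-TQ and MT-TE because they are light-strand tRNAs. Nothing is in capitals. The letters are those of the gene, and the CCA end that a mature tRNA carries is not encoded.
MT-TV, chrM:1602-1670, + strand: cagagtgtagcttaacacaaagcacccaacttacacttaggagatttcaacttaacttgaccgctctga
MT-TL1, chrM:3230-3304, + strand: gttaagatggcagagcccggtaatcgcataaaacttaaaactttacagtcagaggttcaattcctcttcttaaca
MT-TQ, chrM:4329-4400, - strand: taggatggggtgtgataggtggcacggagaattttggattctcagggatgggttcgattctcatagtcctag
MT-TE, chrM:14674-14742, - strand: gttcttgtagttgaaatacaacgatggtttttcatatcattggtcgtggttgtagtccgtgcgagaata
The strands differ in base composition. Guanine makes up 35.6% of the MT-ND6 sequence, against 6.28% to 16.2% in the 12 heavy-strand mRNA genes. In the 8 light-strand tRNA genes it makes up 23.5% to 36.1%, and in the 14 heavy-strand tRNA genes 10.3% to 19.1%.

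Total counts ran from 6013980 to 40549699 per library. All 12 liver markers examined were detected, with summed levels of 14400 to 24240 CPM (counts scaled to a common library size) in a library. Of 6 immune markers 3 could be tested, with summed levels of 27.8 to 34.0 CPM in vehicle at 20% O2, 9.81 to 12.3 CPM in vehicle at 1% O2 and 14.8 to 23.9 CPM with 32-134D. Of 7 fibroblast and endothelial markers 4 could be tested, at 33.9 to 38.1 CPM, 13.7 to 14.9 CPM and 29.4 to 31.7 CPM in the same order. PTPRC, CD3E, DCN, VWF and CDH5 had summed counts under 10. These low levels moved with the groups, and their part in the results was not tested. Replicate 3 of 32-134D stood apart from the other replicates of its group. The chi-square over genes, divided by its degrees of freedom, was 36.2 and 40.5 against them and 2.08 between them. Replicate 1 stood apart in both vehicle groups, with smaller values. In vehicle at 20% O2 it was at 6.724 and 13.26 against the other replicates, with 1.641 between them. In vehicle at 1% O2 it was at 8.629 and 12.96, with 2.599 between the others. In bulk RNA, fewer cells of a type and less RNA per cell cannot be told apart. CPM of single genes are scaled by the TMM method in edgeR, a gene was called with an FDR below 0.05 over all genes tested and a fold change above 1.5, and the 3 groups were fitted together.

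In hypoxia the mitochondrial rRNAs rose, and all mitochondrial mRNAs and tRNAs that were called fell. Of the 32 genes tested, 2 were higher in vehicle at 1% O2 than in vehicle at 20% O2 and 19 were lower. Over all genes, 19.5% were called higher and 20.3% lower. Both rRNAs were among the higher genes, and the lower ones were 7 of the 12 heavy-strand mRNAs, MT-ND6, which is the light-strand mRNA, and 11 of the 17 tRNAs. The median log2 fold change of the 32 genes was -1.20, against 0.00 over all genes. The libraries of the groups did not overlap for 23 of the 32 genes, as for 60.5% of all genes.

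With 32-134D at 1% O2 the same classes moved the other way. Against vehicle at 1% O2, 17 genes were higher and 2 lower, where 16.2% of all genes were called higher and 13.7% lower. The 2 lower genes were the rRNAs, and the higher genes were 6 heavy-strand mRNAs, MT-ND6 and 10 tRNAs. The median was 1.16, against -0.01 over all genes, and 24 genes had no overlap between the groups, as did 56.1% of all genes. This comparison shares the libraries of vehicle at 1% O2 with that of hypoxia, so opposite directions are not independent of each other. Compared with vehicle at 20% O2, 32-134D left 2 genes higher, both of them rRNAs, and 1 lower, MT-TE, where 3.0% of all genes were called higher and 0.516% lower. The median was -0.25, against -0.00 over all genes, and 12 genes did not overlap, beside 29.8% of all genes.

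The classes held different shares of the library counts in each group. Mitochondrial mRNAs took 3.27%, 3.36% and 3.23% of the counts in replicates 1, 2 and 3 of vehicle at 20% O2, 1.98%, 1.92% and 1.94% in vehicle at 1% O2, and 3.23%, 2.99% and 2.98% with 32-134D. The hypoxic vehicle libraries were lowest, and the other groups overlapped. The rRNAs took 0.658%, 0.624% and 0.597% in vehicle at 20% O2, 2.27%, 2.57% and 2.63% in vehicle at 1% O2, and 1.18%, 1.15% and 1.02% with 32-134D. In the rRNAs the 3 groups were separate, with the compound between the vehicle groups. The tRNAs never exceeded 0.00244% of a library, which is 104 to 640 counts. Because mRNAs and rRNAs moved in opposite directions, all 37 genes together differed less, from 3.91% ± 0.08 in vehicle at 20% O2 to 4.44% ± 0.17 in vehicle at 1% O2 and 4.19% ± 0.21 with 32-134D (SD, n = 3).

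**Figure D1:**
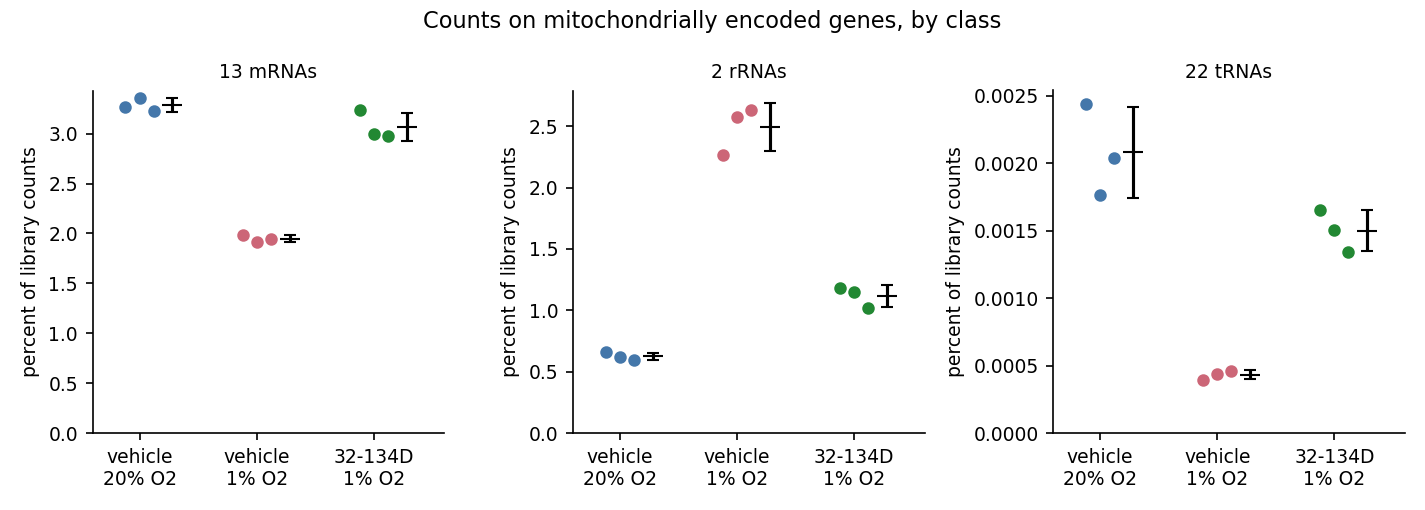
Percent of the counts of a library (y axis, from 0) that fell on the 13 mRNAs, 2 rRNAs and 22 tRNAs in the 3 groups (x axis); points are libraries, and black marks are the mean with its SD. The mRNA and tRNA shares are lowest in vehicle at 1% O2, where the rRNA share is highest, at 2.27% to 2.63%.

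Ratios between classes within a library do not depend on the scaling of the other genes. In vehicle at 20% O2 the libraries held 0.201, 0.186 and 0.185 rRNA counts per mRNA count, in vehicle at 1% O2 1.14, 1.34 and 1.36, and with 32-134D 0.365, 0.386 and 0.342. The 3 groups were separate. The ratio was 6.70-fold higher in hypoxia (log2 difference 2.74), 3.51-fold lower with 32-134D than with vehicle at 1% O2 (-1.81), and 1.91-fold higher with 32-134D than with vehicle at 20% O2 (0.93). The 4 measures, namely the share of all 37 genes, the rRNA to mRNA ratio and the ratios of MT-ND6 and of tRNAs given further on, were compared with 12 two-sided exact permutation tests, for which 3 libraries against 3 allow no p below 0.1. The p-value was 0.1 (adjusted 0.109) in 11 of these exact tests and 0.2 for the share of all 37 genes with 32-134D against vehicle at 1% O2, where the libraries overlapped.

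MT-RNR1 (chrM:648-1601) and MT-RNR2 (chrM:1671-3229) encode the RNAs of the small and large subunits of the mitochondrial ribosome. MT-RNR2 was at 5582, 5360 and 5174 CPM in vehicle at 20% O2, at 21970, 25790 and 26320 CPM in vehicle at 1% O2, and at 10260, 9917 and 8804 CPM with 32-134D. MT-RNR1 was at 594, 532 and 524 CPM, then 2409, 2761 and 2825 CPM, then 1171, 1159 and 995 CPM in the same order. For both genes all hypoxic vehicle libraries lay above all 32-134D libraries, which lay above all normoxic ones. The log2 fold changes in hypoxia were 2.28 for MT-RNR1 (SE 0.09, FDR 7.93e-11 from edgeR) and 2.20 for MT-RNR2 (SE 0.09, FDR 9.27e-11 from edgeR). With 32-134D against vehicle at 1% O2 they were -1.27 (SE 0.09) and -1.35 (SE 0.09), and against vehicle at 20% O2 1.01 and 0.85. MT-RNR1 gave 9.03% to 9.61% of the summed rRNA counts in vehicle at 20% O2, 9.67% to 9.88% in vehicle at 1% O2 and 10.2% to 10.5% with 32-134D, so the proportion between the rRNAs differed little, although the groups did not overlap.

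Of the 3 tRNAs that abut the rRNAs, MT-TV and MT-TL1 fell as the rRNAs rose. The other, MT-TF for phenylalanine, had 5, 0 and 10 counts in vehicle at 20% O2, 2, 3 and 8 in vehicle at 1% O2, and 5, 9 and 2 with 32-134D, and its overlapping groups were not called in hypoxia (log2 fold change -0.82, FDR 0.378 from edgeR). MT-TV, the valine tRNA between MT-RNR1 and MT-RNR2, had 23, 9 and 50 counts in vehicle at 20% O2 (1.65, 1.41 and 1.52 CPM), 15, 2 and 4 in vehicle at 1% O2 (0.398, 0.0943 and 0.138 CPM), and 48, 46 and 17 with 32-134D (1.36, 1.55 and 0.777 CPM). In hypoxia it fell by 2.70 on the log2 scale (SE 0.43, FDR 7.77e-05 from edgeR), and with 32-134D it rose by 2.40 (SE 0.41, FDR 0.000213 from edgeR). MT-TL1, a leucine tRNA between MT-RNR2 and MT-ND1, was at 5.38, 5.34 and 6.08 CPM, then 1.38, 1.84 and 1.66 CPM, then 4.96, 4.14 and 3.29 CPM. Its hypoxic vehicle libraries were the lowest without overlap, and its log2 fold changes were -1.82 and 1.37. The counts of a tRNA in such a library come from reads assigned to a short gene, and whether they were mature tRNAs, precursors or ends of neighbouring transcripts cannot be told apart in these counts.

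**Figure D2:**
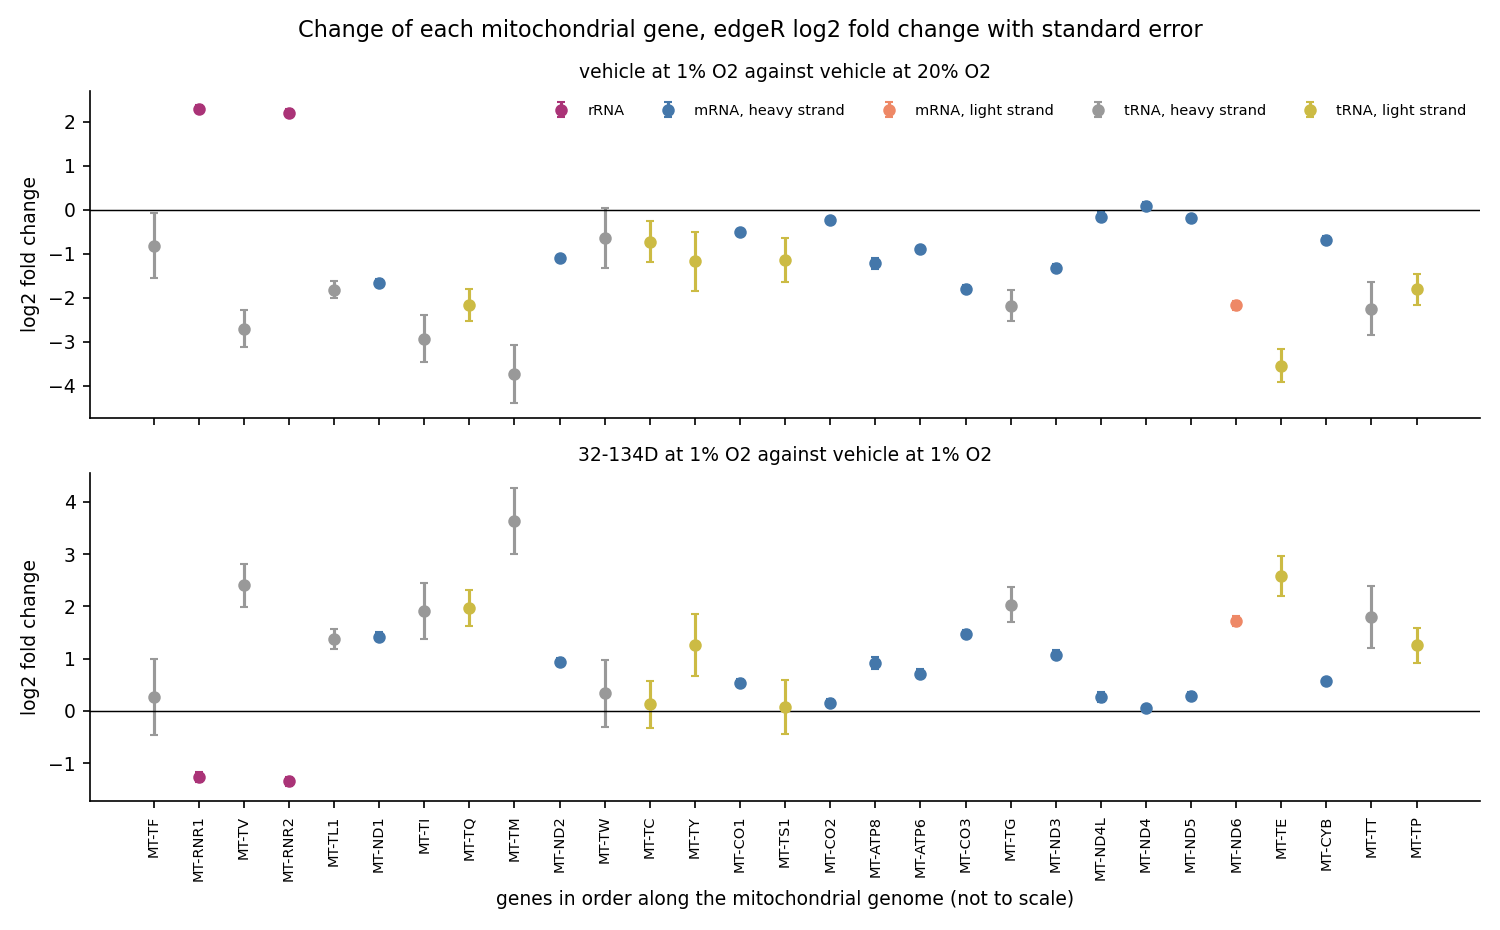
Log2 fold change (y axis) of 29 tested mitochondrial genes in their order along the genome (x axis, not to scale), in hypoxia (top) and with 32-134D against vehicle at 1% O2 (bottom); points are edgeR estimates, bars are SE, and colours give the class and strand. MT-TA, MT-TH and MT-TL2 are left out because a group had 3 counts or fewer. The rRNAs lie at 2.28 and 2.20 in hypoxia, apart from all mRNAs and tRNAs, and MT-ND4 at 0.09 (-0.12 with total library size) is the only other gene drawn above 0.

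The 12 heavy-strand mRNAs did not move as a block. By edgeR, 20.3% of all genes were called lower and 19.5% higher in hypoxia, and the counts that follow stand beside those shares. In hypoxia their log2 fold changes ran from -1.80 to 0.09 with a median of -0.79, against 0.00 over all genes; 7 were lower and none higher by edgeR (unadjusted p below 0.05 in 10 lower and 0 higher; 7 lower and 0 higher by DESeq2). The largest decrease was that of MT-CO3 (chrM:9207-9990), at 3348, 3109 and 3003 CPM in vehicle at 20% O2, 946, 860 and 918 CPM in vehicle at 1% O2, and 2699, 2527 and 2326 CPM with 32-134D. All 3 groups were separate. MT-CO3 fell by 1.80 on the log2 scale (SE 0.08, FDR 1.91e-10 from edgeR) and rose by 1.47 with 32-134D (SE 0.08, FDR 3.98e-09 from edgeR). MT-ND4 (chrM:10760-12137), a subunit of the proton-pumping arm of complex I, was at 5623, 6051 and 5987 CPM, then 5857, 6460 and 6516 CPM, then 6701, 6258 and 6488 CPM. Its vehicle groups overlapped, and its log2 fold changes of 0.09 (SE 0.07, FDR 0.293 from edgeR) and 0.05 (SE 0.07, FDR 0.630 from edgeR) did not pass the test. The sign of the first depended on the scaling, being -0.12 with total library size, a scaling that moved the median of all genes by -0.21 here and by 0.18 with 32-134D against vehicle at 1% O2.

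Along the genome, genes with larger and smaller changes alternated. MT-ND1 and MT-ND2, the complex I genes next to the rRNAs, had log2 fold changes of -1.67 and -1.10 in hypoxia. MT-CO1 and MT-CO2, which encode the catalytic core of complex IV, followed at -0.52 and -0.23, below the fold change threshold, although MT-CO1 was called without replicate 1 of vehicle at 20% O2 (-0.59). The next genes, MT-ATP8 and MT-ATP6 of ATP synthase, MT-CO3 and MT-ND3, were at -1.22, -0.91, -1.80 and -1.33 and were all called lower. MT-ND4L, MT-ND4 and MT-ND5, all of complex I, stood at -0.16, 0.09 and -0.19, and MT-CYB, the cytochrome b of complex III, at -0.68, which was called. The Pearson correlation of the log2 fold change with order along the genome was 0.48 (Spearman 0.45) over the 12 genes. That with gene length was 0.38 (Spearman 0.34) and that with summed counts 0.55 (Spearman 0.38). These values are descriptions over genes that share precursors, libraries and overlapping reads.

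With 32-134D against vehicle at 1% O2, the heavy-strand mRNAs had log2 fold changes of 0.05 to 1.47 with a median of 0.64, against -0.01 over all genes, and 6 were higher and none lower by edgeR (unadjusted p below 0.05 in 11 higher and 0 lower; 8 higher and 0 lower by DESeq2). By edgeR, 16.2% of all genes were called higher and 13.7% lower. The called mRNAs were MT-ND1 (1.42), MT-ND2 (0.94), MT-ATP8 (0.92), MT-ATP6 (0.71), MT-CO3 (1.47) and MT-ND3 (1.08). MT-CO1 at 0.54 and MT-CYB at 0.56 lay just under the fold change threshold, and both were called higher by DESeq2. Without replicate 1 of vehicle at 20% O2 or replicate 3 of vehicle at 1% O2, edgeR also called MT-CO1 (0.60 and 0.61) and MT-CYB (0.62 and 0.61), and MT-CYB was called without replicate 1 of vehicle at 1% O2 (0.61) or replicate 2 or 3 of 32-134D (0.60 and 0.59). In the comparison with vehicle at 20% O2, none of the 12 passed in either direction by edgeR or by DESeq2 (unadjusted p below 0.05 in 6 lower and 0 higher), and their log2 fold changes ran from -0.32 for MT-CO3 to 0.14 for MT-ND4. The value of MT-CO3 had an FDR of 0.0143 from edgeR with a fold change under the threshold. In this comparison 3.0% of all genes were called higher and 0.516% lower.

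Within the pool of mitochondrial mRNA, MT-ND4 gained and MT-CO3 and MT-ND1 lost share in hypoxia. MT-ND4 held 18.3%, 19.1% and 19.5% of the counts on the 13 mRNAs in vehicle at 20% O2, 27.5%, 30.3% and 30.3% in vehicle at 1% O2, and 21.4%, 21.8% and 22.6% with 32-134D. MT-CO3 held 10.9%, 9.80% and 9.75%, then 4.44%, 4.04% and 4.27%, then 8.62%, 8.79% and 8.11%. For both genes the 3 groups were separate, with 32-134D between the vehicle groups. Scaled to the mRNA total in edgeR, 1 heavy-strand mRNA rose in hypoxia, MT-ND4 by 0.63 on the log2 scale (FDR 1.51e-06), and 4 fell, namely MT-ND1 (-1.13), MT-ATP8 (-0.68), MT-CO3 (-1.26) and MT-ND3 (-0.79). With 32-134D against vehicle at 1% O2, MT-ND1, MT-CO3 and MT-ND3 rose on the same scale, by 0.95, 1.00 and 0.61. A share rises when other genes fall, so these values show unequal change and not which gene moved.

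**Figure D3:**
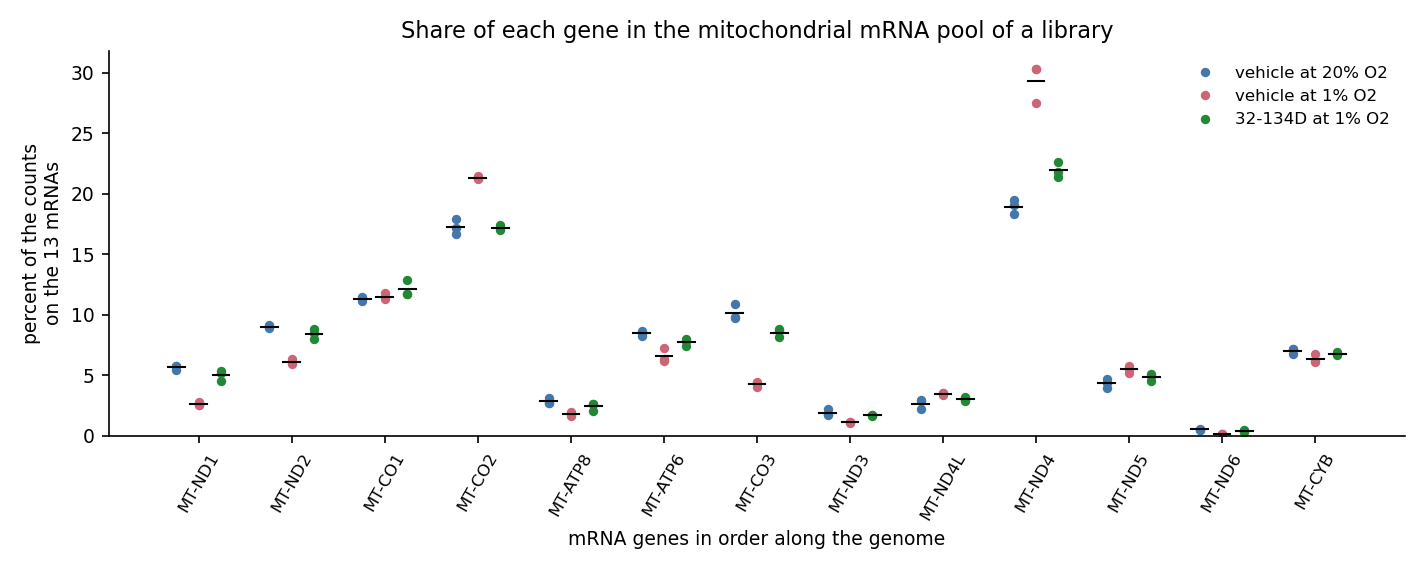
Percent of the counts on the 13 mitochondrial mRNAs (y axis, from 0) held by each gene (x axis, in order along the genome) in the 3 groups; points are libraries and black lines are group means. MT-ND4 lies at 27.5% to 30.3% in vehicle at 1% O2, above both other groups, and MT-CO3 at 4.04% to 4.44%, under both.

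Among the mRNAs and rRNAs, levels per length put the rRNA of the large subunit first only in vehicle at 1% O2. In CPM per kilobase of gene, MT-CO2 had the highest level in vehicle at 20% O2, 7837 ± 280 (SD, n = 3), followed by MT-ATP8 at 4276 ± 332, MT-ND4 at 4272 ± 168, MT-CO3 at 4022 ± 225 and MT-ATP6 at 3853 ± 117. Neighbours among these last 4 differed by less than the sum of their SDs. MT-ND6 had the lowest level of the mRNAs and rRNAs, 296 ± 17.9 CPM per kilobase. In vehicle at 1% O2 the first was MT-RNR2 at 15840 ± 1525, then MT-CO2 at 6668 ± 19.6, MT-ND4 at 4556 ± 265 and MT-RNR1 at 2793 ± 235. With 32-134D the order began with MT-CO2 at 7439 ± 406, MT-RNR2 at 6197 ± 489 and MT-ND4 at 4704 ± 161. MT-ND1 lay at 1846 ± 85.4, 579.7 ± 27.3 and 1549 ± 192 CPM per kilobase in the 3 groups.

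MT-ND6 (chrM:14149-14673), the complex I subunit encoded alone on the light strand, had the lowest log2 fold change of the 13 mRNAs in hypoxia. It was at 147, 154 and 165 CPM in vehicle at 20% O2, 33.6, 34.2 and 35.7 CPM in vehicle at 1% O2, and 116, 129 and 95.3 CPM with 32-134D, with no overlap between any of the groups. The log2 fold change was -2.17 in hypoxia (SE 0.10, FDR 3.24e-10 from edgeR) and 1.72 with 32-134D against vehicle at 1% O2 (SE 0.10, FDR 8.27e-09 from edgeR). Against vehicle at 20% O2 it was -0.45 (SE 0.10, FDR 0.00754 from edgeR), under the fold change threshold. Relative to the heavy-strand mRNAs of the same library, MT-ND6 gave 48.0, 48.7 and 54.0 counts per 10000 in vehicle at 20% O2, 15.8, 16.1 and 16.6 in vehicle at 1% O2, and 37.3, 45.0 and 33.4 with 32-134D. The 3 ranges were separate. The ratio was 3.10-fold lower in hypoxia and 2.37-fold higher with 32-134D than with vehicle at 1% O2 (exact permutation p = 0.1 each, the smallest possible). MT-ND5, whose last base is the neighbour of the last base of MT-ND6 on the other strand, was at -0.19 in hypoxia. The strand setting of the counting is not given in the sources used here, so without it reads from either gene and from transcripts antisense to it cannot be told apart.

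**Figure D4:**
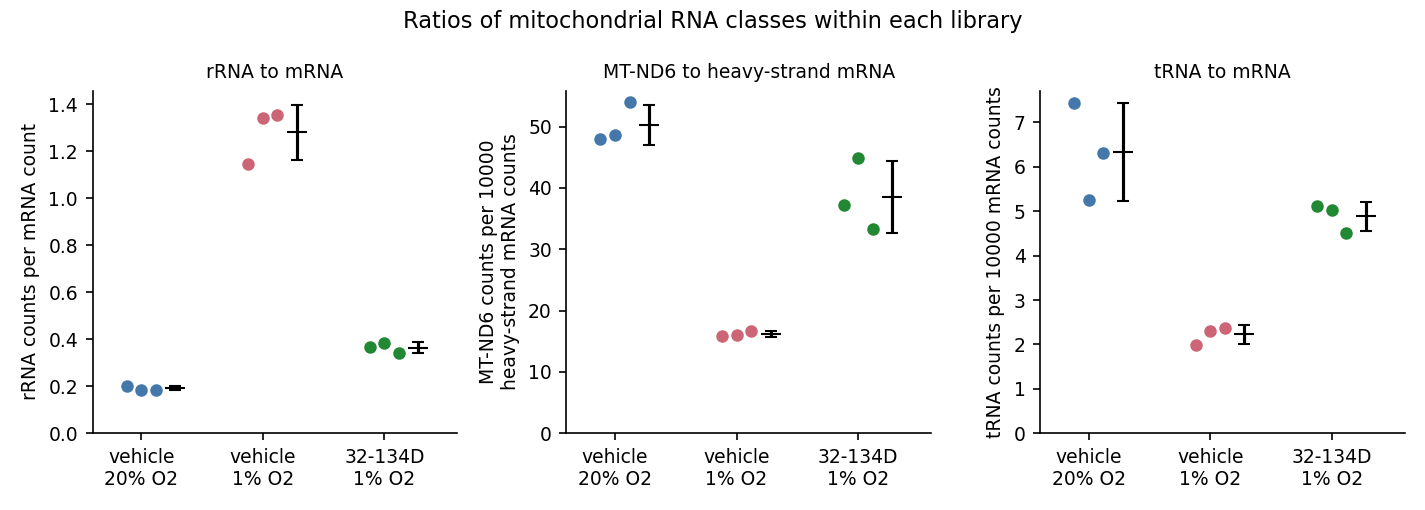
Ratios of counts within each library (y axes, from 0) in the 3 groups (x axis): rRNA per mRNA count, MT-ND6 per 10000 heavy-strand mRNA counts and tRNA per 10000 mRNA counts; points are libraries, and black marks are the mean with its SD. In each panel vehicle at 1% O2 stands apart from both other groups, above them for rRNA (1.14 to 1.36) and under them for MT-ND6 (15.8 to 16.6) and tRNA (1.99 to 2.38).

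The tRNAs fell in hypoxia on both strands. Of the 17 tested, 11 were lower and none higher by edgeR (unadjusted p below 0.05 in 12 lower and 0 higher; 10 lower and 0 higher by DESeq2), 7 of the 10 from the heavy strand and 4 of the 7 from the light strand. Their median log2 fold change was -2.16, and it did not change when groups with 3 counts or fewer were set to 3 counts. With 32-134D against vehicle at 1% O2, 10 were higher and none lower by edgeR (unadjusted p below 0.05 in 11 higher and 0 lower; 10 higher and 0 lower by DESeq2), with a median of 1.79. By edgeR, 20.3% of all genes were called lower in hypoxia and 16.2% higher with 32-134D against vehicle at 1% O2. Shares of all genes at unadjusted p and by DESeq2 are not reported here. Over the 14 tRNAs with more than 3 counts in every group, the range was -3.74 to -0.65 in hypoxia and 0.08 to 3.63 with 32-134D. In each library there were 7.45, 5.25 and 6.32 tRNA counts per 10000 mRNA counts in vehicle at 20% O2, 1.99, 2.30 and 2.38 in vehicle at 1% O2, and 5.11, 5.03 and 4.51 with 32-134D. The 3 ranges did not overlap, and the ratio was 2.83-fold lower in hypoxia (exact permutation p = 0.1).

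Single tRNAs rested on few counts. MT-TE, the glutamate tRNA beside MT-ND6, was at 2.73, 2.35 and 2.37 CPM in vehicle at 20% O2, 0.0795, 0.189 and 0.380 CPM in vehicle at 1% O2, and 1.36, 1.25 and 1.19 CPM with 32-134D, from 131, 18 and 111 counts per group. Its groups were separate, with log2 fold changes of -3.55 (SE 0.37, FDR 1.21e-06 from edgeR) and 2.59 (SE 0.38, FDR 5.05e-05 from edgeR). Compared with vehicle at 20% O2 its log2 fold change with 32-134D was -0.97 (SE 0.29, FDR 0.0489 from edgeR), a call lost without replicate 1, 2 or 3 of vehicle at 20% O2 (-0.89, -0.99 and -1.02), without replicate 2 of vehicle at 1% O2 (-0.97) and without replicate 1 or 2 of 32-134D (-1.02 and -0.95). MT-TQ, the glutamine tRNA, was at 3.30, 0.942 and 1.79 CPM, then 0.477, 0.566 and 0.380 CPM, then 1.79, 2.15 and 1.60 CPM, and its changes of -2.16 and 1.97 were called. Here the vehicle groups did not overlap, although replicate 2 of vehicle at 20% O2, the smallest library, had only 6 counts.

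MT-TP for proline, of the light strand, and MT-TG for glycine, of the heavy strand, were also lowest in hypoxic vehicle. MT-TP was at 2.58, 1.57 and 1.64 CPM, then 0.716, 0.519 and 0.380 CPM, then 1.28, 0.909 and 1.83 CPM. MT-TG was at 1.72, 0.785 and 1.28 CPM, then 0.212, 0.377 and 0.311 CPM, then 1.30, 1.08 and 1.19 CPM. Both stood apart in vehicle at 1% O2 without overlap, by log2 fold changes of -1.81 and -2.18, and were called higher with 32-134D, by 1.25 and 2.03. MT-TA had 24 counts in vehicle at 20% O2, 1 in vehicle at 1% O2 and 30 with 32-134D, MT-TH had 8, 1 and 11, and MT-TL2 had 2, 2 and 6. MT-TA and MT-TH were called lower in hypoxia, with 1 count in the hypoxic group. The call of MT-TH was lost in 4 fits that each left out a library, replicate 1 of vehicle at 20% O2 (FDR 0.232 from edgeR), replicate 1 or 2 of vehicle at 1% O2 (FDR 0.145 and 0.0993) or replicate 2 of 32-134D (FDR 0.0533). That of MT-TT in hypoxia was lost without replicate 3 of vehicle at 20% O2 (FDR 0.0620 from edgeR). Its call with 32-134D was lost without replicate 2 or 3 of vehicle at 1% O2 or replicate 1 or 2 of 32-134D (FDR 0.0547, 0.0667, 0.0753 and 0.0717 from edgeR), and that of MT-TI without replicate 1 of vehicle at 1% O2 (FDR 0.0569 from edgeR). Other calls were gained in this way, those of MT-TY in both comparisons without replicate 3 of vehicle at 1% O2 (-2.03 and 2.16), of MT-TS1 in hypoxia without replicate 2 of vehicle at 20% O2 (-1.34), and of MT-TH with 32-134D without replicate 1 of vehicle at 20% O2 or replicate 1 of 32-134D (FDR 0.0487 and 0.0225 from edgeR). The 5 untested tRNAs, MT-TN, MT-TD, MT-TK, MT-TR and MT-TS2, had 4 to 7 counts each in all libraries.

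Reads of some of these genes can be split with copies in the nuclear genome or with overlapping neighbours, and their values are uncertain to that extent. MT-ATP8 and MT-ATP6 share 46 bases, MT-ND4L and MT-ND4 share 7, and how reads over shared or repeated sequence were counted is not given in the sources used here. MTATP6P1, the nuclear copy with the most counts, had 166786 counts, 36.0% as many as MT-ATP6, and its log2 fold changes of -0.89 and 0.74 lay beside -0.91 and 0.71 for MT-ATP6. For the other parents the copy with the most counts was chosen after its values were seen. MTND1P23 was at -1.52 and 1.13, MTND2P28 at -1.19 and 1.16, MTCO3P12 at -1.51 and 1.36, MTND4P12 at 0.06 and 0.08, and MTRNR2L12 at 2.27 and -1.33. MTCO1P12, with 88117 counts, was at -0.34 and 0.39, beside -0.52 and 0.54 for MT-CO1. MTCO2P12 was at -0.30 and 0.22, MTATP8P2 at -0.87 and 0.79, MTND5P11 at -0.56 and 0.23, and MTND4LP30 at -0.05 and -0.16. MTCYBP18, with 18 counts, was at -1.95 and 1.11, and MTND6P4, with 20, at -2.37 and 2.17. Not all copies lay close to their parents. Of 415 listed copies 29 could be tested, and in hypoxia 4 of them were higher and 7 lower. With so few copies these counts are near the shares over all genes, 19.5% higher and 20.3% lower.

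Nuclear genes for the same respiratory complexes were mostly not called in hypoxia, although in each complex more rose than fell at unadjusted p below 0.05 from edgeR. The share of all genes at that unadjusted p is not reported here. Over all genes 19.5% were called higher and 20.3% lower, and most of the counts of called genes that follow are near or under those shares. In hypoxia 6 of 37 nuclear genes of complex I were higher and none lower, with a median log2 fold change of 0.22. Unadjusted p from edgeR was below 0.05 in 17 higher and 7 lower of them. The 6 heavy-strand genes of complex I had a median of -0.65. For complex IV, 3 of 12 nuclear genes were higher and none lower (median 0.41), beside -1.80, -0.52 and -0.23 for MT-CO3, MT-CO1 and MT-CO2. All 12 nuclear genes had log2 fold changes of 0.20 or more, with unadjusted p from edgeR below 0.05. One of them, COX4I2, reached the count needed for testing only through vehicle at 1% O2. Its direction in both comparisons with that group therefore follows in part from the filter. Of 13 genes listed for complex IV, 12 could be tested. For complex III none of 9 passed in either direction by edgeR (median 0.43), beside -0.68 for MT-CYB. Unadjusted p from edgeR was below 0.05 in 5 higher and 1 lower, and DESeq2 called 0 higher and 1 lower. For ATP synthase 2 of 18 were higher and 2 lower (median 0.17), beside -1.22 and -0.91 for MT-ATP8 and MT-ATP6. Here unadjusted p from edgeR was below 0.05 in 9 higher and 2 lower. Among complex II genes, which have no mitochondrially encoded member, 1 of 4 was higher. With 32-134D against vehicle at 1% O2, 13.7% of all genes were called lower. Called lower here were 4 genes of complex I, 1 of complex III, 3 of complex IV and 2 of ATP synthase. None of these lists had a higher gene by edgeR or by DESeq2. In the same order, unadjusted p from edgeR was below 0.05 in 22, 7, 11 and 13 lower and 1, 1, 0 and 2 higher genes. The counts of called genes are small and moved when single libraries were left out. The count of complex I genes higher in hypoxia was 3 without replicate 3 of vehicle at 20% O2, and that of complex IV genes lower with 32-134D was 1 without replicate 3 of vehicle at 1% O2.

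In each list with a called gene, 1 gene had the largest called change in hypoxia. These were NDUFC1, an accessory subunit of complex I, SDHD, part of the membrane anchor of complex II, COX4I2 in complex IV, and ATP5IF1, the inhibitor of ATP synthase. NDUFC1 was at 20.9 ± 3.20, 45.5 ± 2.59 and 22.9 ± 1.10 CPM in vehicle at 20% O2, vehicle at 1% O2 and 32-134D (SD, n = 3), which corresponds to log2 fold changes of 1.13 and -0.99. SDHD rose by 0.93 in hypoxia, and its change of -0.57 with 32-134D was called only without replicate 1 of vehicle at 1% O2 (-0.61) or replicate 2 of 32-134D (-0.59). ATP5IF1 fell by 0.95, from 58.7 ± 3.56 to 30.3 ± 1.52 CPM, and with 32-134D it was at 0.47, called without replicate 3 of that group (0.63). COX4I2, the isoform of a complex IV subunit that is known to be induced at low oxygen, had 1, 0 and 0 counts in vehicle at 20% O2, 13, 9 and 23 in vehicle at 1% O2 and 1, 0 and 0 with 32-134D, so that only in hypoxic vehicle were its counts above 1.

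**Figure D5:**
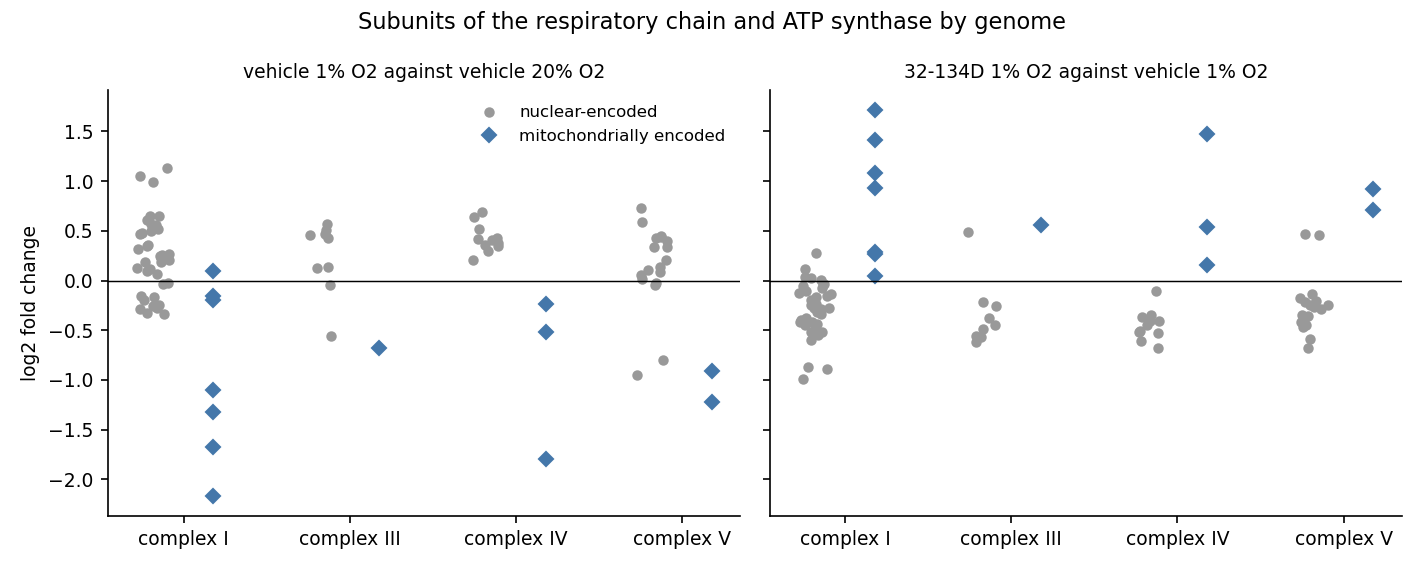
Log2 fold change (y axis) of subunits of complexes I, III, IV and V, which is ATP synthase (x axis), in hypoxia (left) and with 32-134D against vehicle at 1% O2 (right); grey points are nuclear-encoded genes tested, without COX4I2, and blue diamonds are mitochondrially encoded genes, MT-ND6 included. In hypoxia 12 of the 13 diamonds lie under 0, all but MT-ND4 (0.09, and -0.12 with total library size), and with 32-134D all 13 lie above it.

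Nuclear genes that act on mitochondrial DNA and RNA were called in both directions. The counts are to be read against 19.5% higher and 20.3% lower over all genes in hypoxia, and 16.2% and 13.7% with 32-134D against vehicle at 1% O2, and several are near those shares. Of 9 transcription genes, 4 were higher and 1 lower in hypoxia, and 1 was higher and 2 were lower with 32-134D against vehicle at 1% O2. TEFM, the elongation factor of mitochondrial transcription, rose from 8.09 ± 0.929 to 18.1 ± 0.359 CPM and was at 10.4 ± 0.603 CPM with 32-134D (SD, n = 3), by log2 fold changes of 1.13 and -0.80. Of 14 genes for DNA replication, 3 were higher (1 without replicate 1 of vehicle at 1% O2 or replicate 1 of 32-134D, and 5 without replicate 3 of vehicle at 20% O2) and 1 lower, the last being RNASEH1, which removes RNA from RNA-DNA hybrids, at -1.35 in hypoxia and 1.30 with 32-134D. Of 20 genes for RNA processing and decay, 7 were higher and 1 lower. FASTKD5, needed to process transcript ends that no tRNA flanks, rose by 1.17 and fell by 0.81 with 32-134D. PRORP, the nuclease of the enzyme that cuts the leading ends of mitochondrial tRNAs, was the lower gene of this list, at -0.96 in hypoxia and 0.77 with 32-134D; it was named after its values were seen. Of 20 genes for RNA modification 5 were higher and 3 lower, and MRM3, which methylates the large rRNA, was at 1.05 and -0.75. With 32-134D compared with vehicle at 20% O2, only 3.0% of all genes were called higher and 0.516% lower, which leaves room for few calls in such lists. None of the genes in these 4 lists passed by edgeR or by DESeq2. In the order given, unadjusted p from edgeR was below 0.05 in 3, 5, 7 and 4 higher and 2, 0, 1 and 0 lower genes.

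Genes listed for RNAs without a long poly(A) tail are given beside the rRNAs and tRNAs. The library kit and any selection of RNA are not given in the sources used here. Of 25 such genes listed, 13 could be tested, with 1 higher and 4 lower in hypoxia, and 3 higher and 2 lower with 32-134D against vehicle at 1% O2. With so few genes these counts are near the shares over all genes, 19.5% higher and 20.3% lower in hypoxia and 16.2% and 13.7% with 32-134D. The higher count in hypoxia was 0 in 5 of the fits that left out a library, and those with 32-134D ran from 1 to 5 higher and from 1 to 2 lower. H2AC6, a histone gene, was at 28.6 ± 2.24, 6.96 ± 1.05 and 18.9 ± 6.23 CPM in the 3 groups (SD, n = 3), by log2 fold changes of -2.05 and 1.46. H2BC12 was at -0.997 and 0.39, and the second value was called only without replicate 3 of 32-134D (0.67). RN7SL1, the RNA of the signal recognition particle, was at -0.36 in hypoxia and was not called. Whether the counts of these listed genes, histone genes among them, came from RNA without a tail was not tested. Nor was the part of library selection in the mitochondrial results tested.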

How the data were processed

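RNA was extracted with TRIzol from 9 Hep3B cultures. The authors deposited raw read counts per Ensembl gene; their processing notes and methods name FastQC, MultiQC, Bbduk, STAR, featureCounts, DESeq2 and GRCh38. Tool versions, library kit, strand setting and handling of reads with several positions are not given in the sources used here. From these counts, edgeR 4.0.16 in R 4.3.3 gave log2 fold changes (TMM scaling, quasi-likelihood test, 1 fit of 9 libraries, genes with summed counts of at least 10, Benjamini-Hochberg FDR below 0.05 and fold change above 1.5). The edgeR procedure was also run on simulated counts in which a small set of genes, none of them at low counts, was changed. That run does not test the low counts of the tRNAs or a change of many genes at once. Class ratios were compared with two-sided exact permutation tests. Alternatives were DESeq2 1.42.0, other scalings, filters and thresholds, thinning to 6013980 counts, a replicate block and fits without each library in turn. Members and gene lists were chosen with earlier results of these data known. Genes named are both rRNAs, MT-ND6, the heavy-strand mRNAs with the highest and lowest change in hypoxia, the 3 tRNAs with most counts per strand, the called gene with the largest change in each nuclear list, the RNAs without a tail and the nuclear copy with most counts; others are named where their class is described, and the values of some genes are not reported here. No pairing by replicate number was seen, with correlations of same-numbered libraries from -0.151 to 0.0750, a check that is weak with 3 libraries per group. Depth was 6013980 to 40549699 counts, and 3 replicates limit precision.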

Additional observations from a re-analysis of the deposited data

How the results depend on the processing

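No called mitochondrial gene reversed under any alternative. Requiring 10 counts in each library leaves fewer tRNAs to test, and 11 mitochondrial genes were lower in hypoxia and 11 higher with 32-134D against vehicle at 1% O2. Leaving out 1 library gave 18 to 20 lower and 2 higher genes in hypoxia, and 16 to 20 higher and 2 lower with 32-134D. Against vehicle at 20% O2, it gave 2 higher and 0 to 1 lower. In this comparison 1 gene was higher with a fold change above 2. The lower count, MT-TE alone, was 0 with DESeq2 size factors, with scaling to the mitochondrial mRNA total, with 10 counts required in each library, with a fold change above 2 and with a replicate block, and 3 with no fold change threshold. The replicate block also lost MT-TH in hypoxia (FDR 0.0771 from edgeR). No pairing by replicate number was seen, since 1 of 9 libraries correlated best with its own number. With so few libraries per group, this check cannot exclude that same-numbered samples were handled together. Taken as a mean of log2 levels per kilobase, in which each gene weighs the same, the summed share of mitochondrial genes reversed to -1.59 in hypoxia, 1.22 with 32-134D against vehicle at 1% O2 and -0.38 against vehicle at 20% O2 (exact permutation p = 0.1 each). By its construction this measure gives the rRNAs little weight. It takes in all 22 tRNAs, the untested ones included, with 0.5 added to each count, so low counts and unequal depth enter its value. MT-CO1 became called lower in hypoxia with total library size (-0.73), with 10 counts required in each library (-0.63) and after thinning (-0.61). Thinned to the smallest library, MT-TG and MT-TT in hypoxia and MT-TV, MT-TI, MT-TA and MT-TT with 32-134D were no longer called. For the counts of the nuclear lists, 1116 values stayed within 1.5 times and 204 did not, apart from the scaling to mitochondrial mRNA. Depth limits the tRNAs above all.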

Other observations

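Ratios of overlapping neighbours, which the comparisons above do not use, varied between replicates. Counts on MT-ATP8 per count on MT-ATP6 were 0.362, 0.321 and 0.329 in vehicle at 20% O2, 0.273, 0.272 and 0.267 in vehicle at 1% O2, and 0.328, 0.340 and 0.269 with 32-134D. The value of replicate 3 of 32-134D lay in the range of hypoxic vehicle, apart from the other replicates of its group. Counts on MT-ND4L per count on MT-ND4 were 0.118, 0.150 and 0.149 in vehicle at 20% O2, 0.122, 0.115 and 0.116 in vehicle at 1% O2, and 0.132, 0.134 and 0.143 with 32-134D. Here replicate 1 of vehicle at 20% O2 lay among the hypoxic values.

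The 6 heavy-strand mRNA genes that end within a codon had log2 fold changes from -1.80 to 0.09 in hypoxia, with a median of -1.21. The 6 that end with a complete codon ran from -1.22 to -0.16, with a median of -0.37. The ranges overlap, MT-ND4 in the first group was the highest of all 12, and the split was made after the values were seen and was not tested.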
